A study of Mus musculus with 20 samples.

Results

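The genes described here encode 10 proteins that build, coat, enlarge or empty lipid droplets: Fitm1, Fitm2, Plin2, Plin4, Plin5, Cidea, Cideb, Cidec, G0s2 and Pnpla2. They were taken by name from a given list, out of 46603 gene identifiers in the count files, and all 10 were matched and passed the filter on low counts. Fitm1 was selected on its read counts in knockout against wild-type liver, where it was lower, so its knockout against wild type values are given as a description with no test. The other members were named with results of these data already known.

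The data are bulk RNA sequencing counts from liver of male mice aged 2 months, in 4 groups of 5 libraries. Wild-type (WT) mice were C57BL/6J bought from The Jackson Laboratory. Knockout (KO) mice, EedHepKO, carried the Alb:Cre transgene, in which the albumin promoter drives Cre in hepatocytes, together with Eed alleles that have loxP sites around exons 3 and 6 (Eedflox), and were bred in a colony of their own. Baseline samples were lobes 1, 2 and 3, taken out at a partial hepatectomy (PHx). The samples after PHx were lobes 4, 5 and 6 of the same mice, collected at 30 h (1 mouse per genotype), 40 h (2 mice) or 48 h (2 mice). Genotype therefore cannot be told apart from colony, nor the PHx response from lobe. Eed was not measured by cell type, and in bulk tissue fewer cells of a type and less RNA per cell cannot be told apart. Values per library are CPM, counts per 1000000 of the scaled library total. A gene is called, and said to rise or fall, where its edgeR adjusted p is under 0.05.

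A lipid droplet is a core of triglyceride and sterol ester under a single layer of phospholipid. Neutral lipid is made in the endoplasmic reticulum, where the FIT proteins (Fitm1, Fitm2) help it to leave the membrane as a droplet. Perilipins (Plin genes) coat the surface and limit access of lipases, CIDE proteins (Cidea, Cideb, Cidec) join droplets or pass lipid between them, and adipose triglyceride lipase (Pnpla2) removes the first fatty acid under the control of the inhibitor G0s2. Hepatocytes fill with droplets for a time after hepatectomy, while fatty acids from adipose tissue reach the liver. EED is a core subunit of polycomb repressive complex 2, which places a histone mark of silenced genes. The question addressed is how loss of that complex in hepatocytes changes these genes in resting and in regenerating liver.

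Library totals ran from 21634890 to 30461351 counts. Eed itself had 16.8 ± 1.09 CPM (SD, n = 5) in WT and 5.64 ± 1.44 CPM (SD, n = 5) in KO at baseline, and 18.4 ± 3.98 against 4.62 ± 1.13 CPM (SD, n = 5 each) after PHx, with no overlap between genotypes. All 7 hepatocyte markers that could be matched were detected in every group. Their summed level ran from 121440 to 142068 CPM in WT and from 78417 to 105307 CPM in KO at baseline, with no overlap. After PHx it ran from 74136 to 127145 and from 43909 to 100473 CPM. Of the 7, 2 fell in KO at each stage, where 4.89% of all genes fell at baseline and 8.2% after PHx. Summed markers of stellate cells ran from 162 to 258 CPM in WT and from 440 to 470.0 CPM in KO at baseline, and those of macrophages from 173 to 296 and from 426 to 540 CPM. Cholangiocyte markers, at 34.4 to 80.2 CPM in WT and 75.2 to 387 CPM in KO, overlapped. At baseline 4 of 8 stellate, 3 of 8 macrophage, 1 of 8 endothelial and 2 of 7 tested cholangiocyte markers rose in KO, where 11.1% of all genes did, and after PHx 3, 3, 1 and 5, where 16% did. After PHx the stellate sum was 141 to 252 CPM in WT and 261 to 488 CPM in KO. The macrophage sum was then 46.5 to 372 and 124 to 413 CPM, and the cholangiocyte sum 35.5 to 257 and 137 to 596 CPM, and both overlapped. The part of these other cell types in the genotype differences below was not tested.

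Fitm1 and Fitm2 are paralogs with unlike levels in these livers, so the bases just before their start sites are shown, with Cidec, the member with the largest change after PHx. The sequences are RefSeq windows (GRCm38.p6, the build of mm10), cut to the bases upstream of both the RefSeq and the GENCODE start, 5′ to 3′ on the strand of the gene. They are chr14:55575424-55575616 (plus strand) for Fitm1, chr2:163472630-163472879 (minus strand) for Fitm2 and chr6:113435761-113436010 (minus strand) for Cidec. Capitals mark CG dinucleotides, the bases of CpG islands.
Fitm1: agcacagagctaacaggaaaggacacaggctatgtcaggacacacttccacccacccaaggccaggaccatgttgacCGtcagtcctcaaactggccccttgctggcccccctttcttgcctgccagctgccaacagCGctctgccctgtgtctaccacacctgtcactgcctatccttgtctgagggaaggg
Fitm2: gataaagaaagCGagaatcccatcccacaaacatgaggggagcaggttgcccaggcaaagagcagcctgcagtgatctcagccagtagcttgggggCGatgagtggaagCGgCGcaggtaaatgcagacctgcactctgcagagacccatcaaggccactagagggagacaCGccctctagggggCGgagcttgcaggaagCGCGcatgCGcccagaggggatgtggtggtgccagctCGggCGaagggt
Cidec: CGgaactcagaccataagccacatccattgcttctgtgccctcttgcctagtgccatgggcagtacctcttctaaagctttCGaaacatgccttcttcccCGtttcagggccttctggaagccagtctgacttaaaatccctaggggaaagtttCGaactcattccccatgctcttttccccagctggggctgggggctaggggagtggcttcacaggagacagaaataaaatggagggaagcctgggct
The Fitm1 stretch of 193 bases holds 2 CG dinucleotides, and the 250 bases of Fitm2 and of Cidec hold 11 and 4. In the full RefSeq windows of 300 bases, from 250 before to 50 after the start, the counts were 6 for Fitm1, 16 for Fitm2 and 6 for this start of Cidec, beside a median of 7 over 32851 windows. Windows were found for 9 of the 10 members, with none for Cidea. The nuclear receptor half-site AGGTCA, searched on both strands, lay in the windows of Plin2 and Plin5 and in no other member's, and 16.3% of all windows hold it. The paired motif AGGTCANAGGTCA, in which the half-site occurs 2 times and which PPAR proteins bind, was in no member window and in 0.04% of all windows. These matches describe letters and not binding.

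Fitm1 was close to absent from the knockout liver at both stages. The gene (ENSMUSG00000022215, protein coding, mm10 chromosome 14, 55575617 to 55576954, plus strand) is known mainly from skeletal muscle and heart. In WT at baseline, Fitm1 was at 24.9, 24.4, 23.98, 23.1 and 21.7 CPM in replicates 1 to 5. In KO at baseline, replicates 7, 8, 10, 11 and 12 had 0.232, 0.845, 0.931, 1.00 and 1.08 CPM. Every KO library was far below every WT library, and the WT libraries differed from each other by a factor of only 1.15. On the log2 scale KO differed by -4.85 (SE 0.54), a level 28.9-fold lower, given with no test.

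After PHx the WT livers of replicates 1 to 5 had 15.7, 10.6, 4.83, 5.28 and 7.31 CPM of Fitm1. The KO livers, in the same order as above, had 0.150, 0.549, 1.75, 0.389 and 0.379 CPM. The genotypes again did not overlap, with a log2 fold change of -3.77 (SE 0.52), 13.6-fold lower, and -4.54 without KO replicate 10. Within WT, all 5 livers after PHx lay below all 5 at baseline. The log2 fold change was -1.43 (SE 0.46), which edgeR called lower (adjusted p 0.0327). The WT libraries of this test also belong to the genotype comparisons on which Fitm1 was picked. The test is therefore not independent of that choice, and the call is not used as support. This call was lost in 8 of 20 fits that each left out 1 library, the 5 of WT baseline and WT after PHx replicates 3, 4 and 5, with adjusted p up to 0.097, and it was -1.08 (0.0759) with library size alone and -1.37 (0.0533) with no filter. In KO, whose low values chose Fitm1, the change was -0.35 and, without KO replicate 10, -1.12, both given as a description. Fitm1 stays among the 10 members counted in KO below, and nothing is read from its test there. The antisense gene model Gm15932 overlaps Fitm1, and without a stated strand setting its reads cannot be told apart. Fitm1 is best known from skeletal muscle, whose markers summed to at most 1.38 CPM in any library. Over the 20 libraries Mylpf had 199 counts, Tnni2 33 and Acta1 24, and Myl1 and Pvalb had 0.

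Fitm2, the FIT gene expressed in most tissues (ENSMUSG00000048486, mm10 chromosome 2, 163466379 to 163472629, minus strand), was also lower in KO at baseline, by less. WT replicates 1 to 5 had 48.2, 60.6, 66.6, 52.0 and 54.0 CPM. KO replicates 7, 8, 10, 11 and 12 had 21.4, 25.1, 33.8, 34.1 and 32.5 CPM. The lowest WT library exceeded the highest KO library, and Fitm2 fell by 0.94 on the log2 scale (SE 0.29, edgeR adjusted p 0.0347). That call is near the threshold. It was lost in 9 of the 20 fits that left out 1 library (WT baseline replicates 2 to 5, KO baseline replicates 7, 8, 10 and 12, KO after PHx replicate 8), with adjusted p up to 0.134. With library size as the only scaling, the change was -0.47 (adjusted p 0.186) where the median of all genes stood at 0.45, and with no filter on low counts it was -0.87 (0.0708).

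After PHx the Fitm2 values spread out and the genotypes overlapped. WT livers had 52.4, 84.7, 39.8, 99.7 and 27.7 CPM, and KO livers 32.5, 33.1, 36.4, 29.2 and 68.3 CPM. The KO against WT change was -0.61 (SE 0.29, edgeR adjusted p 0.135), and -0.89 (adjusted p 0.0249) without KO replicate 12, the highest KO library. The PHx response was 0.11 (SE 0.29, adjusted p 0.827) in WT and 0.44 (SE 0.29, adjusted p 0.256) in KO by the same edgeR test. Per kb of exon, Fitm1 was the more abundant of the pair in WT at baseline, at 24.3 ± 1.30 CPM per kb against 14.2 ± 1.84 for Fitm2 (SD, n = 5). Its share of the summed level per kb was 63.2% ± 3.12 in WT and 9.81% ± 3.22 in KO at baseline (SD, n = 5), and 38.4% ± 15.3 and 6.41% ± 5.94 after PHx. The FIT transcripts of KO liver were thus mostly Fitm2.

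**Figure D1:**
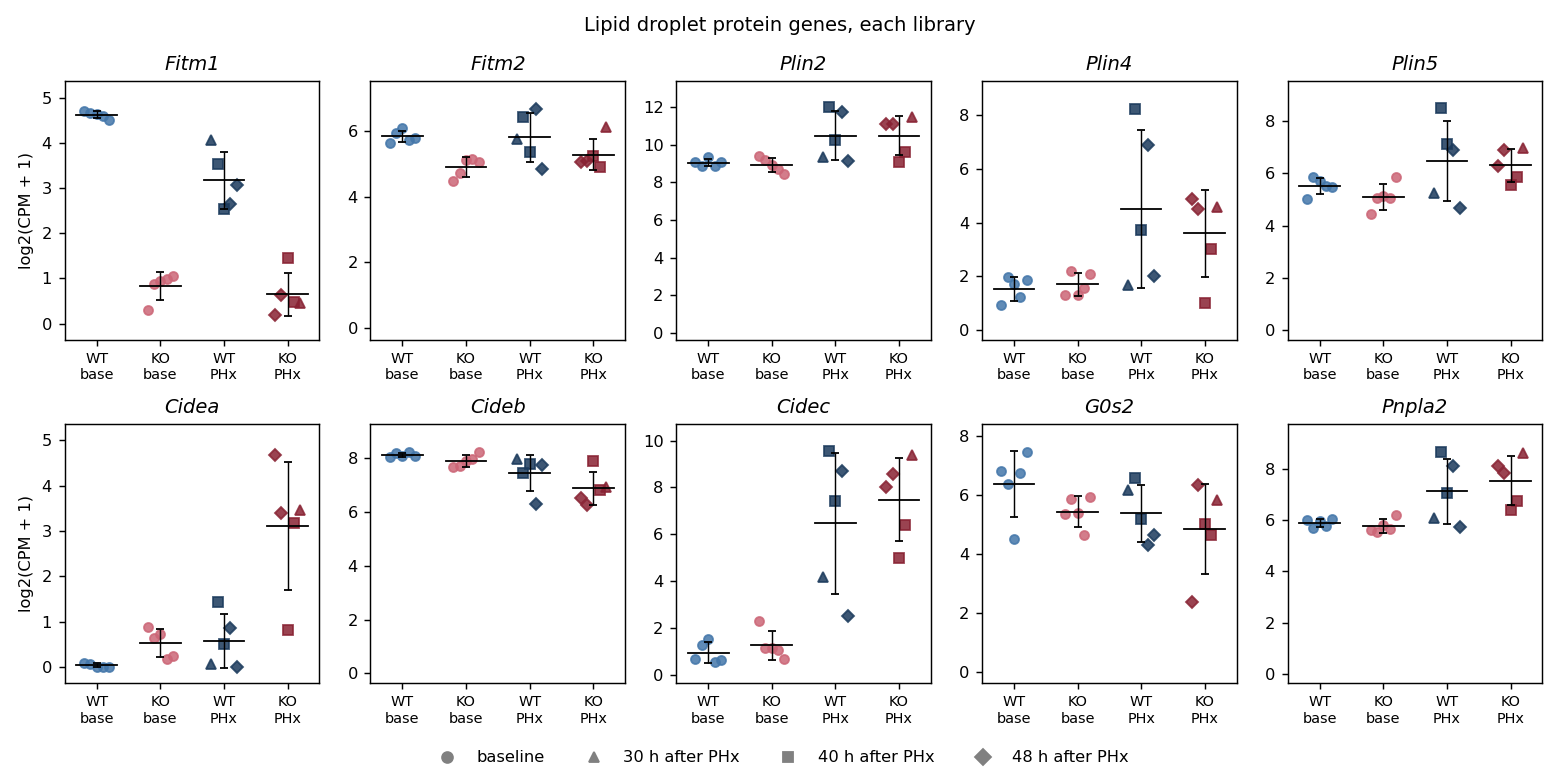
Level of each of the 10 genes as log2(CPM + 1) in every library of the 4 groups (base, baseline; PHx, after PHx), with the group mean (line) and SD (bar, n = 5) and the marker shape giving hours after PHx. Fitm1 is separated by genotype at both stages, Cidec by stage in both genotypes, and the perilipins and Pnpla2 spread widely after PHx.

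The values of the genes beside Fitm1 are given as a description. The nearest tested genes on one side were Dcaf11, a receptor of a ubiquitin ligase, and Pck2, a mitochondrial enzyme of gluconeogenesis. On the other side were Psme1, of a proteasome activator, and Emc9, of a membrane protein insertion complex. At baseline the KO against WT log2 fold change was 1.55 for Pck2 (SE 0.52, edgeR adjusted p 0.0459), which rose, -0.37 for Dcaf11 (0.527), -0.20 for Psme1 (0.503) and -0.46 for Emc9 (0.442). After PHx these were 1.28 (0.0728), -0.90 (0.0831), -0.27 (0.304) and -0.33 (0.559). Of 22 other tested genes that start within 200 kb, 1 was called higher and 0 lower at baseline by edgeR, with log2 fold changes from -0.84 to 1.55. Of all genes, 11.1% were called higher and 4.89% lower there. After PHx 1 was called higher and 2 lower, from -1.23 to 4.11, the highest being Rec8 (4.11, edgeR adjusted p 0.00692). Rec8 was then at 0.672 ± 0.515 CPM in WT and 11.7 ± 21.9 CPM in KO (SD). The KO SD exceeds the KO mean, so this change may rest on few livers. Cideb, another of the 10, lies on the same chromosome, 177095 bases from Fitm1.

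**Figure D2:**
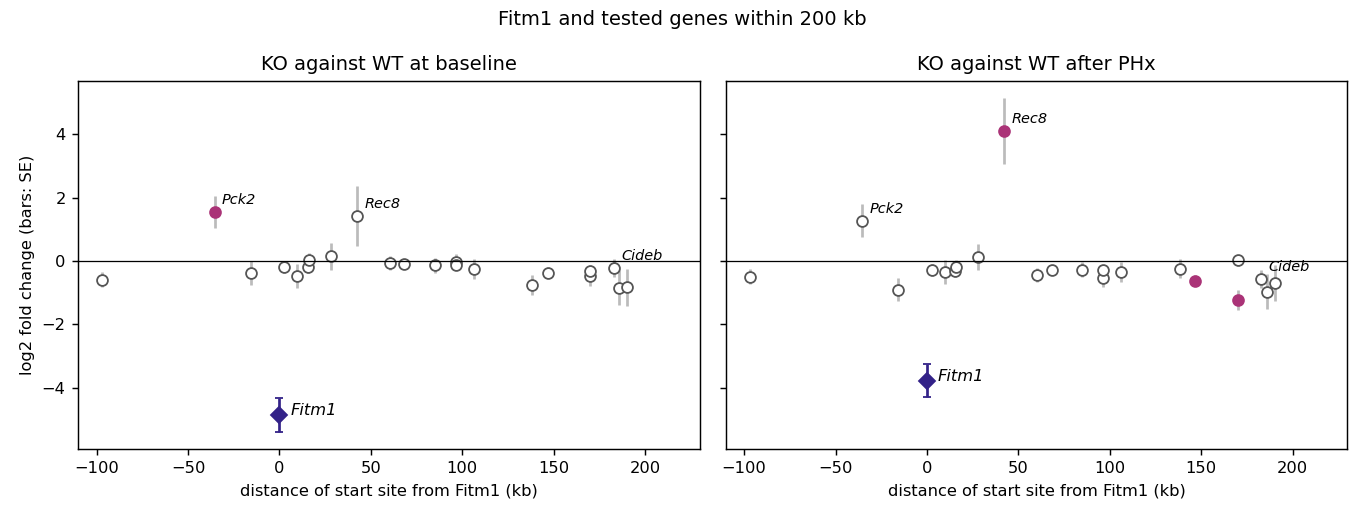
KO against WT log2 fold change (bars, SE) of Fitm1 (diamond) and of the 22 other tested genes within 200 kb, by distance of start site in kb, at baseline and after PHx. Filled circles passed an adjusted p of 0.05, and Fitm1, which has no test, is at -4.85 and -3.77.

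Across the 20 libraries, the genes whose log2(CPM + 1) followed Fitm1 most closely among 9540 genes with a mean of at least 5 CPM were Mup3 (Pearson r 0.92), Mup12 (0.92), Cd1d1 (0.92), Mup21 (0.90) and Txn1 (0.89). The Mup genes encode major urinary proteins, which the liver of male mice secretes, and Cd1d1 encodes a protein that presents lipid antigens. The r values describe 20 libraries that fall into 4 groups, with no test. Mup3 averaged 15749 CPM in WT and 1573 CPM in KO at baseline, and 5263 and 532 CPM after PHx, an order of groups that the choice by likeness to Fitm1 fixes. Mup genes are near-identical copies and their reads are uncertain.

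In the resting liver the perilipins, the lipase and its inhibitor showed no call between genotypes. At baseline 1 of the 9 members with a test, Cidea, was called higher in KO and 1, Fitm2, fell. Over all 14661 genes tested, 16% were called, 11.1% higher and 4.89% lower, and nothing is read from the count of 2. Cidea, with 2 counts in the WT and 64 in the KO libraries at baseline, passed the filter on low counts only through the libraries after PHx. Its baseline call is therefore given as a description. The median log2 fold change of the 9 members was -0.12 beside -0.03 over all genes. The 7 members without a call ran from -1.14 (G0s2) to 0.71 (Cidec).

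Plin2, the main perilipin of hepatocytes, had 545, 466, 654, 460 and 540 CPM in WT replicates 1 to 5 at baseline. It had 662, 587, 484, 415 and 343 CPM in KO replicates 7, 8, 10, 11 and 12. These ranges overlap, and the difference on the log2 scale was -0.10 (SE 0.49, edgeR adjusted p 0.921). Plin5, the perilipin of oxidative tissues that ties droplets to mitochondria, ran from 31.7 to 57.3 CPM in WT and from 20.8 to 56.6 CPM in KO (-0.38, SE 0.50, adjusted p 0.651). Plin4, best known from adipocytes and muscle, was low in both, at 0.910 to 2.90 and 1.45 to 3.63 CPM (0.23, SE 1.01, adjusted p 0.909). Pnpla2 was at 50.4 to 65.1 CPM in WT and 45.4 to 73.4 CPM in KO (-0.12, SE 0.46, adjusted p 0.893).

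G0s2, which binds and blocks the lipase, had 110, 80.7, 21.6, 105 and 173 CPM in WT at baseline. In KO it had 39.4, 57.6, 40.6, 23.9 and 60.2 CPM. Of the 5 WT libraries, replicate 3 lay below all KO libraries and the others lay above them. The change of -1.14 (SE 0.59, edgeR adjusted p 0.200) did not pass, and with only these 10 libraries in the fit it was -1.12 (adjusted p 0.0463).

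The CIDE genes differed in how they behaved. Cideb, the member of hepatocytes that loads very low density lipoprotein, ran from 266 to 298 CPM in WT and from 205 to 303 CPM in KO at baseline (-0.21, SE 0.28, edgeR adjusted p 0.650). Cidec, which fuses droplets in adipocytes and in fatty liver, was low, at 0.459 to 1.90 and 0.563 to 3.88 CPM (0.71, SE 1.04, adjusted p 0.689). Cidea, known from brown fat and likewise from fatty liver, had 0.0650, 0.04999, 0, 0 and 0 CPM in WT, or 2 counts over 5 libraries. In KO it had 0.830, 0.549, 0.655, 0.125 and 0.188 CPM, or 64 counts. All KO libraries were above all WT libraries. The ratio of KO to WT was 24.6, with a 95% counting interval of 6.53 to 207, which covers counting error only. The edgeR adjusted p was 0.0354, in a test that Cidea entered only through the libraries after PHx. It is given as a description and not used as support. The call was lost in 7 of the 20 fits without 1 library (WT baseline replicates 2 to 5, KO baseline replicates 7, 8 and 10), with adjusted p up to 0.0837, and Cidea was below the filter when only the baseline libraries entered.

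After PHx Cidea was again higher in KO, over a WT level of 74 counts in 5 libraries. WT replicates 1 to 5 had 0.0436, 1.70, 0.419, 0.815 and 0 CPM. KO replicates 7, 8, 10, 11 and 12 had 24.8, 9.51, 0.763, 8.03 and 10.1 CPM. Apart from KO replicate 10, each KO library was above each WT library. Cidea rose in KO, with a log2 fold change of 4.16 (SE 0.93, 17.9-fold, edgeR adjusted p 0.00286), and stayed called in all 20 fits without 1 library, between 3.62 and 5.02. The WT libraries alone did not pass the filter on low counts, so Cidea is in this test through the KO libraries, where it is high. Adipocyte markers summed to at most 0.319 CPM in any of the 20 libraries. Adipoq had 2 counts in all, and Lep and Ucp1 had 0. The model B430212C06Rik lies over Cidea on the opposite strand, and its reads cannot be told apart here.

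Cidea was the 1 member of 9 called between genotypes after PHx, and 0 were called lower by edgeR, against 24.2% of all genes called (16% higher and 8.2% lower). At an unadjusted p under 0.05 there were 3 members, beside 36.5% of all genes, and DESeq2 called 1 member lower, Plin4, and 1500 of 14661 genes. The median log2 fold change of the 9 members was -0.31 beside -0.01 over all genes. Plin4 had a change of -2.43 (SE 0.99, edgeR adjusted p 0.0789), with -2.44 (0.042) by DESeq2, -2.75 (0.0353) without WT replicate 1 and -2.78 (0.037) without WT replicate 5. Cideb had -0.56 (SE 0.28, edgeR adjusted p 0.157), with -0.91 (0.00833) without KO replicate 10 and -0.76 (0.0417) without WT replicate 4. The remaining members with values not yet given were Plin2 at -0.19 (SE 0.49), Plin5 at -0.69 (SE 0.50), Cidec at 0.06 (SE 0.90), G0s2 at -0.31 (SE 0.59) and Pnpla2 at 0.22 (SE 0.46), with edgeR adjusted p from 0.334 to 0.969.

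**Figure D3:**
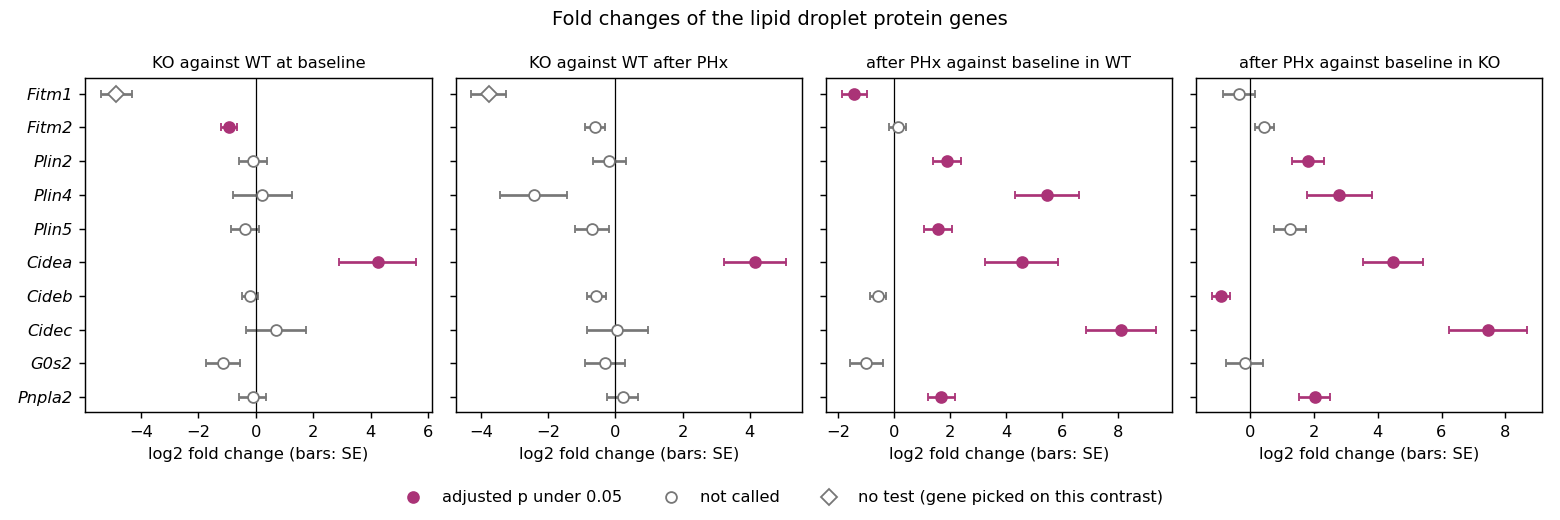
Log2 fold change (bars, SE) of each gene in the 4 comparisons between groups of 5 libraries; each panel has its own axis. Filled points passed an edgeR adjusted p of 0.05, and diamonds are Fitm1 where it has no test; Cidec stands farthest to the right in both PHx panels, at 8.11 and 7.46.

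The 10 genes were next compared before and after hepatectomy within each genotype. In WT, 6 of 10 members rose after PHx (Cidec, Plin4, Cidea, Plin2, Pnpla2 and Plin5), where 20.1% of all genes were called (11.4% higher and 8.68% lower). Cidea, at 2 counts before and 74 after PHx, did not pass the filter in a fit of the WT libraries alone, so nothing is read from its place in that count. Fitm1 was the 1 member called lower, in a test that uses WT libraries on which it was picked, so nothing is read from that count. In KO, 5 of 10 rose (the same without Plin5) and 1 fell (Cideb), where 29.5% of all genes were called (17.5% higher and 12.1% lower). Cidea is in the KO test through libraries after PHx, so nothing is read from its place in the KO count either. The median log2 fold change of the 10 was 1.62 in WT and 1.52 in KO, beside 0.04 and 0.10 over all genes. With the mouse number as a block, the count of members that rose in WT went from 6 to 3, and without WT after PHx replicate 2 it was also 3. Over all genes the count higher in WT went from 1677 to 889 with the block and to 1344 without that replicate.

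Cidec made the largest step of the 10. From levels under 4 CPM at baseline, WT livers reached 16.9, 747, 172, 419 and 4.74 CPM in replicates 1 to 5. KO livers reached 255, 384, 30.5, 83.2 and 665 CPM in replicates 7, 8, 10, 11 and 12. Every liver after PHx was above every baseline liver of its genotype. On the log2 scale Cidec rose by 8.11 in WT (SE 1.26, 276-fold, edgeR adjusted p 0.000321) and 7.46 in KO (SE 1.21, 176-fold, adjusted p 0.000713). Both stayed called in each fit without 1 library, from 7.28 to 8.49 and from 6.87 to 8.11. Per kb of exon, Cidec went from 0.280% ± 0.184 of the summed CIDE level to 40.7% ± 37.9 in WT and from 0.567% ± 0.528 to 52.9% ± 30.1 in KO (SD, n = 5). Cideb held 99.7% and 99.2% of it at baseline.

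The perilipins had different starting levels. Plin2 after PHx was at 638, 4045, 1236, 3350 and 563 CPM in WT and 2206, 2229, 549, 779 and 2882 CPM in KO. WT replicates 1 and 5 and KO replicate 10 lay within the baseline range of their genotype, and the others lay above it. Plin2 rose by 1.88 in WT (SE 0.51 on the log2 scale, edgeR adjusted p 0.0134) and 1.80 in KO (SE 0.51, adjusted p 0.0136). With the mouse number as a block, Plin2 in WT had 1.75 (adjusted p 0.0696).

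Plin4 after PHx was at 2.18, 304, 12.3, 118 and 3.06 CPM in WT and 28.6, 21.6, 1.03, 7.12 and 23.1 CPM in KO. Thus WT replicates 2 and 4 were high, replicates 1 and 5 were near baseline, and KO replicate 10 was below its baseline group. Plin4 rose by 5.45 in WT (SE 1.15 on the log2 scale, edgeR adjusted p 0.00309) and 2.79 in KO (SE 1.02, adjusted p 0.0462). The KO call is the weaker, with 2.30 (adjusted p 0.0868) under the mouse block and a loss in 14 of the 20 fits without 1 library, with adjusted p up to 0.0958 without KO after PHx replicate 7. The 6 fits that kept it were those without WT after PHx replicates 1, 2, 3 or 5 or KO after PHx replicates 10 or 11. The protein-coding gene Hdgfl2 overlaps Plin4 on the other strand.

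Plin5 after PHx was at 37.0, 356, 139, 118 and 24.4 CPM in WT and 76.4, 116, 45.8, 56.8 and 123 CPM in KO. In WT it rose by 1.56 (SE 0.51 on the log2 scale, edgeR adjusted p 0.0361), with 1.20 (adjusted p 0.120) under the mouse block and 0.80 (0.219) without WT after PHx replicate 2. The call was also lost without WT after PHx replicate 3 or any 1 of the WT baseline libraries. In KO it was 1.25 (SE 0.50, adjusted p 0.0676), with 1.21 (0.049) under the mouse block, and it passed without WT after PHx replicates 1, 2 or 5 or KO replicate 10, with 1.40 (0.0403) for the last. On a per kb basis Plin2 remained the main one of the 3, at 87.1% to 90.9% of their summed level as group means.

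Pnpla2, the lipase, was at 66.4, 411, 132, 280 and 52.9 CPM in WT after PHx. KO livers had 280, 229, 83.6, 106 and 398 CPM, all above the KO baseline libraries. Pnpla2 rose by 1.68 in WT (SE 0.47 on the log2 scale, edgeR adjusted p 0.0167) and 2.02 in KO (SE 0.48, adjusted p 0.00523). In WT it was 1.57 (adjusted p 0.0708) under the mouse block and 1.17 (0.0721) without WT after PHx replicate 2. Its inhibitor G0s2 did not pass in either genotype, at -1.01 in WT (SE 0.59, adjusted p 0.239) and -0.18 in KO (SE 0.59, adjusted p 0.838). G0s2 in single livers after PHx ran from 18.7 to 93.6 CPM in WT and from 4.20 to 80.3 CPM in KO. Lamb3 overlaps G0s2 on the other strand, Nop9 overlaps Cideb and 2310001K24Rik overlaps Fitm2.

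Cidea in WT had 74 counts after PHx against 2 at baseline, a ratio of 28.1 with a 95% counting interval of 7.51 to 236, given as a description. In KO Cidea rose by 4.47 (SE 0.94 on the log2 scale, adjusted p 0.00289), from 0.469 ± 0.304 to 10.6 ± 8.73 CPM (SD, n = 5). Cideb went the other way, from 242 ± 39.2 to 127 ± 63.2 CPM in KO (SD, n = 5), where it fell by 0.93 on the log2 scale (SE 0.28, edgeR adjusted p 0.0206). This was lost without KO baseline replicate 12 (0.0516) or KO after PHx replicates 7 (0.0645) or 8 (0.0608). In WT Cideb was at 266 to 298 CPM at baseline and 78.0 to 249 CPM after PHx, with no overlap, at a change of -0.58 (SE 0.28, adjusted p 0.153).

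None of the 9 members with a test was called for a difference of the responses between genotypes by edgeR, where 0.389% of all genes were (0.164% higher and 0.225% lower). At an unadjusted p under 0.05 there were also 0, beside 13.3% of all genes, and DESeq2 called 0. The differences, KO response minus WT response, ran from -2.66 for Plin4 (SE 1.40, edgeR adjusted p 0.418) to 0.83 for G0s2 (SE 0.83, adjusted p 0.717). For Cidec the value was -0.65 (SE 1.37), for Plin2 -0.09 (SE 0.69) and for Cidea -0.08, which ran from -0.68 to 0.78 when 1 library was left out. For Fitm1 the difference was 1.08 (SE 0.68), and 0.31 without KO after PHx replicate 10, given without a test.

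Livers after PHx differed widely within a genotype, and the genes that rose shared much of the order. These genes were taken for being called higher after PHx in the same libraries, so their order is given as a description. How many of all genes share that order was not counted. Over Plin2, Plin4, Plin5, Cidea, Cidec and Pnpla2, WT replicate 2 (40 h) was the highest WT liver for 6 of 6 genes, and replicate 4 (48 h) was among the highest 2 for 5. WT replicate 5 (48 h) was the lowest for 5 and replicate 1 (30 h) for 1. In KO, replicate 10 (40 h) was the lowest for 6 of 6, and replicate 12 (30 h) was the highest for 4. Livers of 1 time point also differed. For Cidec, the WT livers had 419 and 4.74 CPM at 48 h and 747 and 172 CPM at 40 h, and the KO livers had 255 and 384 CPM at 48 h and 30.5 and 83.2 CPM at 40 h.

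A pair of other genes, chosen after their values were seen, moved with this order. Mki67, a marker of dividing cells, was at 82.3, 0.217, 14.2, 0.284 and 328 CPM in WT replicates 1 to 5 after PHx. In KO replicates 7, 8, 10, 11 and 12 it was at 3.42, 8.17, 119, 25.3 and 3.65 CPM. The livers with the lowest droplet genes, WT replicates 1 and 5 and KO replicate 10, thus had the most Mki67. Pdk4, a kinase gene induced by fatty acids and fasting, was at 10.9, 614, 40.9, 1020 and 34.1 CPM in WT and at 1691, 1461, 28.3, 335 and 1615 CPM in KO, and it was low in those same livers. The part of cell division or of fuel supply in the droplet gene levels was not tested.

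**Figure D4:**
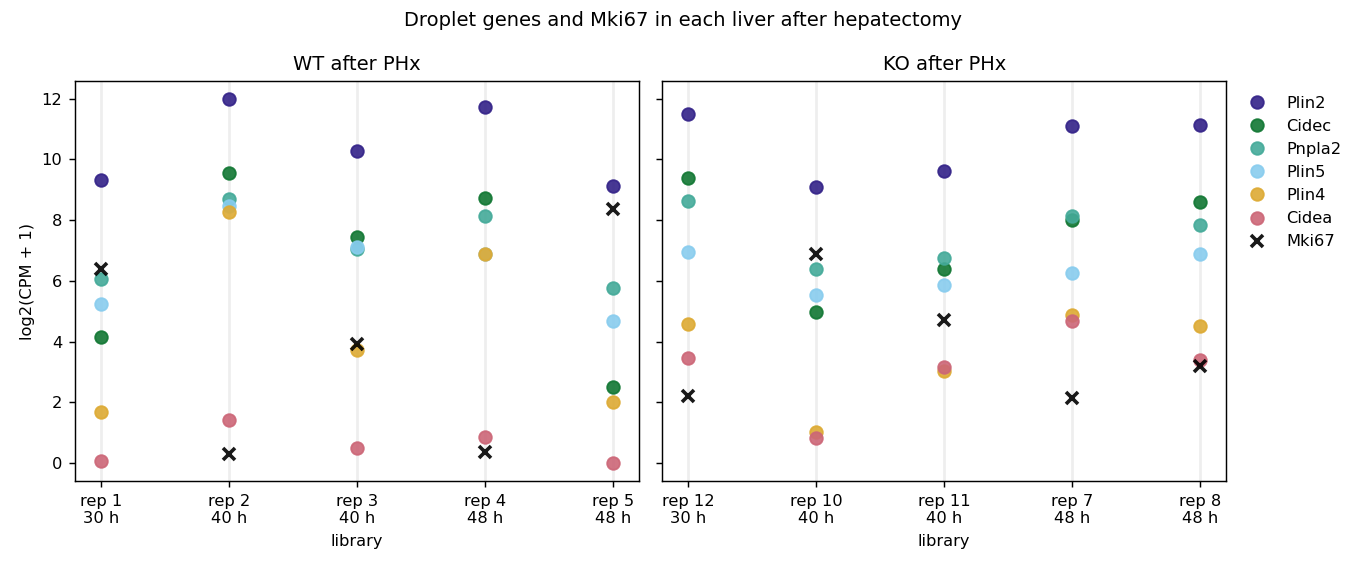
Level, as log2(CPM + 1), of the 6 droplet genes that rose after PHx in WT (circles) and of Mki67 (crosses) in each liver after PHx, ordered by hours after surgery. Mki67 is highest in WT replicate 5 (328 CPM) and KO replicate 10 (119 CPM), where the droplet genes are low, and lowest in WT replicates 2 and 4, where they are high.

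Other genes of lipid storage were counted in lists written from general knowledge. Their counts stand beside the shares of all genes given above for KO against WT, 11.1% higher and 4.89% lower at baseline (median -0.03) and 16% higher and 8.2% lower after PHx (median -0.01). Several calls near the threshold were lost in fits that left out 1 library, as given beside them. Among the calls of these named genes, 13 were also lost with library size alone, 9 in fits of only the libraries compared and 4 with no filter on low counts. Those losses are spelled out below for Abhd5 and Pparg only, so the other calls carry this limit. Of 13 tested genes of droplet coats and biogenesis, 1 rose and 0 fell in KO by edgeR at baseline, where the median of the list was -0.19. The 1 was Ldaf1 (listed as Tmem159), the partner of seipin at the site of droplet formation, at 0.939 ± 0.374 CPM in WT and 3.09 ± 0.637 CPM in KO (SD, n = 5; log2 fold change 1.72, edgeR adjusted p 0.00333). After PHx 2 rose, Ldaf1 (2.50) and the droplet dehydrogenase Hsd17b11 (1.36), and 1 fell, Hsd17b13 (-0.92). Hsd17b11 was at 724 CPM in KO replicate 8 and at 89.2 to 245 CPM in the other KO livers, and without that replicate it was at 0.53 (adjusted p 0.164). It was also lost without WT replicate 4, and Hsd17b13 was lost in 4 fits (adjusted p up to 0.0581). The list median was -0.34.

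Of 17 triglyceride synthesis genes, 2 rose and 3 fell in KO at baseline. Those that fell included Acsl1, which activates fatty acids, from 1690 ± 154 to 512 ± 129 CPM (SD, n = 5; log2 fold change -1.72, edgeR adjusted p 0.000173). Dgat2, which makes triglyceride in the last step, fell by 0.97, a call lost without KO baseline replicate 7 (adjusted p 0.0614), and Acsl5 by 0.61, lost in 17 of 20 fits (up to 0.160). Those called higher were Gpat3 (1.83) and the monoacylglycerol acyltransferase Mogat2, with 69 counts in KO against 2 in WT (ratio 26.5, 95% counting interval 7.06 to 223). Gpat3 and Mogat2 were lost in 2 and 4 fits, with adjusted p up to 0.0577 and 0.0706. Single KO baseline libraries had 25, 19, 12, 9 and 4 counts of Mogat2, and KO libraries after PHx up to 897. It passed the filter on low counts with the help of the libraries after PHx, so nothing is read from its place in that count. After PHx 3 rose (Mogat2 4.11, Mogat1 2.25, Lpin3 1.47) and 2 fell (Gpam -0.99, Agpat3 -0.69), of which Mogat1 was lost in 5 fits (up to 0.0861) and Agpat3 in 2 (up to 0.0575). Mogat2 resembled Cidea in its group levels, at 0.0230 ± 0.0319 CPM in WT at baseline and at 8.61 ± 10.1 CPM in KO after PHx (SD, n = 5). Single KO livers after PHx differed: replicate 12 had 0.0473 CPM of Mogat2 and 10.1 CPM of Cidea, and replicate 11 had 24.9 and 8.03 CPM.

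Of 10 genes of lipolysis and ester hydrolysis, 1 rose and 3 fell in KO at baseline (Abhd6 -1.06, Nceh1 -1.05, Abhd5 -0.99, with Nceh1 lost in 2 fits, adjusted p up to 0.0573), and the 1 that rose was Pnpla3, under the level set for naming and named after its value was seen (2.38, edgeR adjusted p 0.0103). Abhd5 is the activator of the Pnpla2 lipase. It averaged 66.7 ± 11.6 CPM in WT and 33.7 ± 3.82 CPM in KO at baseline, and 33.7 ± 4.05 and 62.0 ± 29.9 CPM after PHx (SD, n = 5), so it fell after PHx in WT and rose in KO. The difference of its responses was 1.87 (SE 0.33, edgeR adjusted p 0.0176), and 1.66 (adjusted p 0.0974) with the mouse number as a block. After PHx Abhd5 was the 1 gene of the list that rose in KO (0.88), and 0 fell by edgeR. The baseline call of Abhd5 was lost with library size alone (-0.49, adjusted p 0.187), and the call after PHx in the fit of only those libraries (0.90, adjusted p 0.0797).

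Of 9 genes of fatty acid uptake and binding, 2 rose and 2 fell in KO at baseline. Lpl, the lipase of triglyceride-rich lipoproteins, rose from 35.7 ± 8.18 to 272 ± 72.1 CPM (SD, n = 5; log2 fold change 2.93, edgeR adjusted p 0.000187), and the receptor Vldlr rose by 1.99. Slc27a2 (-1.06) and Fabp2 (-0.99) fell, the former lost in 9 of 20 fits (adjusted p up to 0.126). After PHx the same genes Vldlr (4.78) and Lpl (2.29) rose. Lpl is also expressed by macrophages and other cells, whose markers are given above. Of 4 genes of sterol ester synthesis and lipoprotein loading, 1 rose at baseline, Soat1 (1.31), lost in 10 of 20 fits (adjusted p up to 0.116). Among 7 transcriptional regulators, Pparg (-1.55) and Ppara (-1.07, lost in 5 fits, adjusted p up to 0.0806) fell at baseline, while after PHx Srebf1 (1.59) rose and Mlxipl (-1.28) fell. Srebf1 was at 646 CPM in KO replicate 12 and at 100.2 to 237 CPM in the other KO livers, and it was lost in 4 fits, with 0.85 (adjusted p 0.191) without that replicate. Mlxipl was lost in 4 fits, with -0.92 (adjusted p 0.105) without WT replicate 5.

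**Figure D5:**
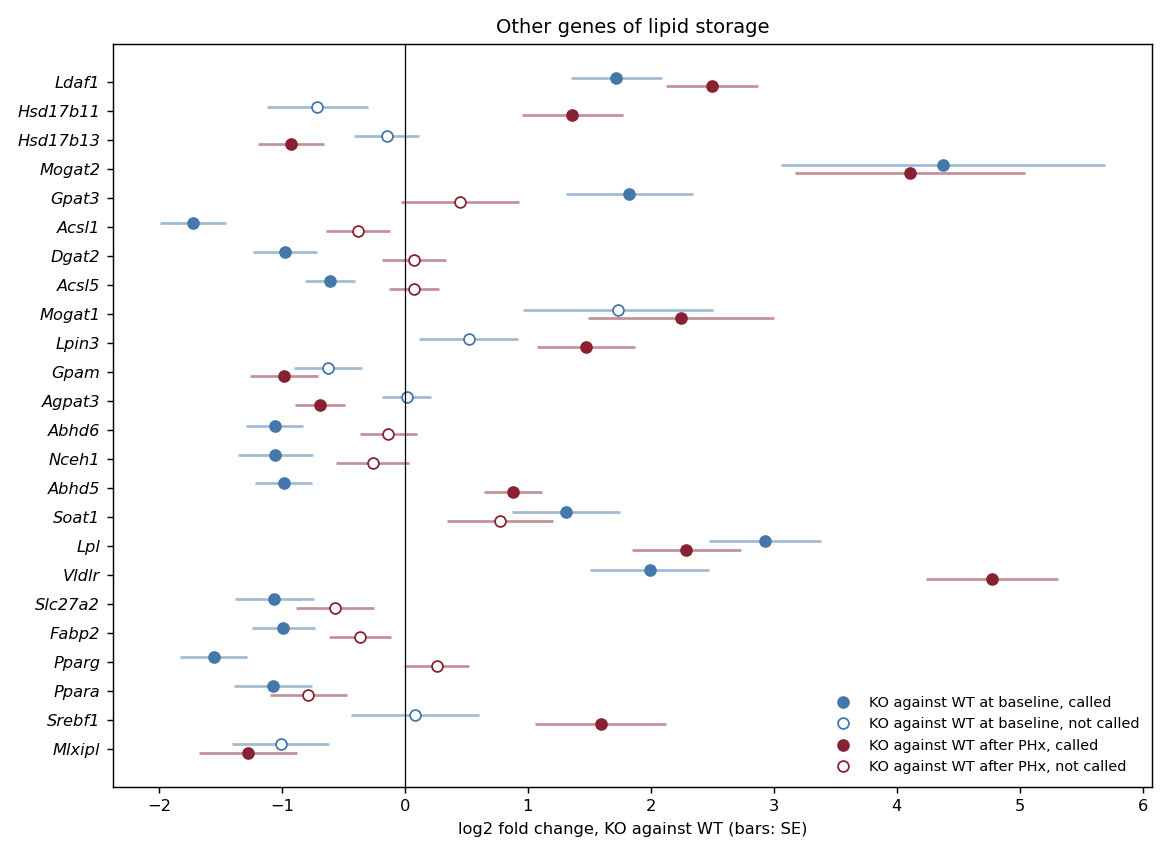
KO against WT log2 fold change (bars, SE) of the 24 other lipid storage genes named in the text, at baseline (blue) and after PHx (red). Filled points passed an edgeR adjusted p of 0.05; Acsl1 is lowest at baseline (-1.72) and Vldlr highest after PHx (4.78).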

How the data were processed

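Poly(A) RNA from 20 liver libraries was made into TruSeq libraries and sequenced paired-end, per the labels' protocols. The authors deposited raw counts per Ensembl gene, 1 file per library, from uniquely mapped reads on mm10. The design text of the series names FastQC 0.11.5 and fastp 0.20.0, and the submitters' processing notes list Trimmomatic 0.36. The aligner, counter, strand setting and annotation are not given in the sources used here. Reads of overlapping genes and of near-identical copies are therefore uncertain.

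Symbols came from GENCODE M21 and promoter windows from RefSeq (GRCm38.p6). Counts were tested with edgeR 4.0.16 (quasi-likelihood, two-sided, R 4.3.3) with TMM scaling and filterByExpr, which kept 14661 genes, as 4 group means over 20 libraries. Adjusted p is Benjamini-Hochberg over all genes tested in the contrast. CPM uses the TMM-scaled total of tested genes. The SE is the size of the log2 fold change divided by the square root of the F statistic, which is unreliable where counts are very low. The script was tested on simulated counts. With 21634890 to 30461351 counts per library, precision at low levels is that of counting, and intervals cover counting error only. The labels do not say that mice came from separate litters or cages.

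The members and lists were chosen with earlier results of these data known. Named by rule besides the 10 members are, per list and KO against WT contrast, up to 3 called genes in each direction with a mean of at least 1 CPM, the 5 genes most like Fitm1, its 2 nearest tested neighbours on each side, and Eed. Mki67, Pdk4, Rec8, Pnpla3, Hilpda, Fabp4, Ces1d, Aadac, Mettl7a1, Ldah and Aup1 were named after their values were seen. The labels say that each mouse gave both samples, so the numbers pair them. Residual correlations of 9 same-number pairs ran from -0.063 to 0.195 (mean 0.062) and of 36 other pairs from -0.229 to 0.285 (mean -0.016). WT baseline replicate 1 has no mouse number. Alternatives were DESeq2 1.42.0, its size factors, library size alone, no filter, a CPM filter, only the compared libraries, time terms, the mouse block and leaving out each library.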

Additional observations from a re-analysis of the deposited data

Results flagged for a closer look

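In 5 of the 40 groups of 5 libraries looked at, 1 library stood far from the others, by its gap to the next library over the range in CPM. Chance gives about 1 in 20 for normally distributed values. CPM values need not be so distributed, so the rate here is not known. Fitm1 was lowest in KO baseline replicate 7, at 0.232 CPM against 0.845 for the next. After PHx it was highest in KO replicate 10, at 1.75 CPM against 0.549. Fitm2 after PHx was highest in KO replicate 12, at 68.3 CPM against 36.4. Cideb after PHx was highest in KO replicate 10, at 235 CPM against 121. Cidec at baseline was highest in KO replicate 7, at 3.88 CPM against 1.23. KO replicate 10 after PHx is also the KO liver with the least of the 6 droplet genes that rose and the most Mki67.

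Of 24 other named lipid storage genes, 2 responded to PHx differently in the genotypes by the edgeR test of the difference, which calls 0.389% of all genes. The 24 were named for being called between genotypes at 1 stage or the other, so the test of the stage difference is not independent of that choice. Abhd5 differed by 1.87 on the log2 scale (SE 0.33, edgeR adjusted p 0.0176), lower after PHx in WT and higher in KO, and by 1.66 (adjusted p 0.0974) with the mouse number as a block. Pparg differed by 1.81 (SE 0.38, edgeR adjusted p 0.0427), with 1.89 (adjusted p 0.0908) with the mouse number as a block. With library size alone it was 1.75 (adjusted p 0.0571), and with no filter on low counts 1.72 (0.0823). The Pparg call was lost in 17 of the 20 fits that left out 1 library, all except WT baseline replicate 4, WT after PHx replicate 2 and KO after PHx replicate 10, with adjusted p up to 0.101.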

How the results depend on the processing

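Size factors of DESeq2 in place of TMM, and a filter of 1 CPM in 5 libraries, changed no call of the 10 genes. With library size alone, the median of all genes moved to 0.45 (baseline) and 0.37 (after PHx) for KO against WT, and the calls at baseline from 1631 higher and 717 lower to 3521 and 113, after PHx from 2342 and 1202 to 3897 and 296. For the responses they moved from 1677 and 1273 to 3796 and 582 in WT, from 2561 and 1770 to 4059 and 961 in KO, and from 24 and 33 to 9 and 48 for the difference. Under it, these KO against WT changes turned positive: at baseline Plin2 (0.40), Plin5 (0.063), Cideb (0.25), Pnpla2 (0.35) and Hsd17b13 (0.33), after PHx Plin2 (0.20), G0s2 (0.12), Abhd6 (0.28), Fabp2 (0.052) and Nceh1 (0.19); so did the KO response of G0s2 (0.11). Each lay under the all-gene median of its contrast (0.37 for the KO response), and none was called. Members called lower became 0 at baseline and 0 in the WT response, both under library size alone and with no filter. With only the compared libraries, members called at baseline were 0 higher and 2 lower, and 0 lower in the KO response; all genes called then were 2846 and 2396 at baseline, 1127 and 218 after PHx, and 1052 lower in the KO response. DESeq2 called 1 member lower after PHx, and 187 and 178 genes for the difference. With no filter 345 genes were lower at baseline and 860 in the WT response, and 14 higher for the difference; time terms gave 56 lower for it.

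With the mouse number as a block, 3 members were called higher in the WT response, Fitm2 in WT turned to -0.072 and the Plin5 difference to 0.013; all genes called were 889 and 1104 in WT, 1575 and 1732 in KO, and 2 and 5 for the difference. The block changed no other call of the 10 genes than those given beside the results. Time terms turned Cidec after PHx to -0.21, the Plin5 difference to 0.016 and the Cidea difference to 0.036, and lost Plin4 in KO (2.89, adjusted p 0.0598) and Plin5 in WT (1.36, 0.0741). Plin4 in KO was also lost with no filter (2.74, 0.0516), and with only the compared libraries Plin5 in WT (1.60, 0.0713) and Cideb in KO (-0.91, 0.0509) were. Plin5 in KO was gained with library size alone (1.52, 0.0221), only the compared libraries (1.26, 0.023) and DESeq2 (1.27, 0.0346).

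Without 1 library, members called were 0 to 1 higher and 0 to 1 lower at baseline, 0 to 1 lower after PHx, 3 to 6 higher and 0 to 1 lower in the WT response, and 0 to 2 lower in the KO response. The 2 in the KO response include Fitm1, without KO after PHx replicate 10, and nothing is read from that call. Uncalled changes that turned sign had these ranges: Fitm2 WT response -0.080 to 0.35; Plin2 baseline -0.16 to 0.011, after PHx -0.45 to 0.25, difference -0.40 to 0.35; Plin5 after PHx -0.97 to 0.066, difference -0.66 to 0.44. They were -0.68 to 0.78 for the Cidea difference, -0.53 to 0.88 for Cidec after PHx, -1.24 to 0.17 for its difference, -0.72 to 0.065 for G0s2 after PHx, -0.59 to 0.13 for its KO response and -0.11 to 0.72 for Pnpla2 after PHx. For other genes they were -0.28 to 0.093 (Abhd6), -0.078 to 0.16 (Acsl5) and -0.12 to 0.25 (Dgat2) after PHx, and -0.080 to 0.14 (Agpat3) and -0.067 to 0.28 (Srebf1) at baseline. The cause was not tested. Depth limits Cidea and Mogat2 in WT at baseline, at 2 counts each.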

Other observations

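After PHx, genes outside the list that act on droplets or supply them also changed; they are named after their values were seen. Hilpda, an inhibitor of the Pnpla2 lipase, rose from 1.63 ± 0.304 to 24.98 ± 28.8 CPM in WT and from 4.00 ± 2.70 to 67.8 ± 65.9 CPM in KO (SD, n = 5), with log2 fold changes of 3.93 (edgeR adjusted p 0.00949) and 4.08 (0.00563). It was the 1 of 13 droplet coat and biogenesis genes that rose in WT, where 0 fell by edgeR. In KO 3 of the 13 rose and 4 fell, the falls being Mettl7a1 (-1.79), Ldah (-1.18), Hsd17b13 (-0.77) and Aup1 (-0.48). Fabp4, a fatty acid binding protein of adipocytes and macrophages, rose by 2.13 in WT and 3.16 in KO. Of 17 genes of triglyceride synthesis, 3 rose and 3 fell in WT, and 3 rose and 1 fell in KO. Gpat3 rose by 3.44 in WT and 2.05 in KO, and Lpin3 by 1.52 and 2.48. In WT Acsl1 (-2.08), Acsl5 (-0.95) and Dgat2 (-0.94) fell, and in KO Acsl1 did (-0.74). Of the 10 genes of lipolysis and ester hydrolysis, 1 rose and 4 fell in WT, where 11.4% and 8.68% of all genes did, and 3 rose and 4 fell in KO, where 17.5% and 12.1% did. The carboxylesterase Ces1d fell by 3.39 in WT and 1.85 in KO, and the arylacetamide deacetylase Aadac by 1.65 and 1.31. Of 9 uptake and binding genes, 1 rose and 4 fell in WT, and 3 rose and 2 fell in KO.

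Pparg had 9.80 ± 3.12 CPM in WT and 3.34 ± 0.540 CPM in KO at baseline (SD, n = 5), and in KO it rose to 8.40 ± 2.09 CPM after PHx (log2 fold change 1.33, edgeR adjusted p 0.00249).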
